A study of Mus musculus and Bos taurus with 2 samples.

Results

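The zona pellucida genes Zp1, Zp2, Zp3 and Zp4 were followed in the transcript models of early mouse and bovine embryos. Members were all deposited models, of either strand relation to the gene, whose gene name was one of the 4 symbols regardless of case. They numbered 13 of 82847 models, 8 of 42028 in mouse and 5 of 40819 in bovine, and they covered 3 of the 4 genes in each species. The mouse library came from late 2-cell embryos collected 36 h after insemination, which were made in vitro from superovulated Slc:ICR oocytes and cultured in KSOM medium. The bovine library held embryos between 8 and 16 cells, taken 72 h after insemination and made by in vitro maturation and fertilization of oocytes from Japanese Black or Japanese Black × Holstein F1 cattle with sperm of a Japanese Black bull. About 200 embryos were pooled per library. With 1 library per species, the values carry no spread between replicates, and mouse and bovine are set side by side without a test. Species, stage, hours in culture and reference annotation cannot be told apart. Polyadenylated RNA was copied to cDNA, amplified with 14 PCR cycles and read on a nanopore sequencer. Reads per model were not part of the files, so depth and RNA levels are unknown, and a gene without a model is reported as not assembled.

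The zona pellucida is the glycoprotein coat that surrounds the mammalian egg and persists around the embryo until hatching. Its proteins share a ZP module through which they polymerise into filaments, and they are known to be made by the growing oocyte. ZP2 carries the region that sperm bind in mouse, and its cleavage after fertilization by ovastacin, a protease released from cortical granules, prevents further binding. ZP3 pairs with ZP2 along the filaments, ZP1 crosslinks filaments in mouse, and ZP4 is the close paralogue of ZP1. Mouse has Zp4 only as a pseudogene, and cattle are known for a coat of ZP2, ZP3 and ZP4.

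The missing member was Zp4 in mouse and ZP1 in bovine. Mouse had 5 models of Zp3, 2 of Zp2, 1 of Zp1 and none of Zp4, and bovine had 2 models of ZP3, 2 of ZP2, 1 of ZP4 and none of ZP1. All 13 models lay on the strand of their gene and had at least 6 exons. The annotated mouse pseudogene Zp4-ps, on the plus strand of chromosome 13 at 11522052 to 11528852 (mm10), was overlapped by 0 models on either strand. The presence of 3 of 4 symbols in each library is read against the share of mouse protein-coding symbols in RefSeq with an own-strand model. This share was 53.5% in mouse and, for the same symbols, 48.6% in bovine, where genes known by other names count as missing. Zp4, a pseudogene in mouse, is not a mouse protein-coding symbol, so the 4 members differ in kind from these symbols by this gene.

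Every assembled zona gene had at least 1 model with the complete intron chain of a reference transcript, as did 72.5% of mouse genes and 65.5% of bovine genes with a model. These exact matches made up 4 of 8 zona models in mouse and 3 of 5 in bovine, against 55.4% of all own-strand models in mouse and 44% in bovine. The other 4 mouse models all belonged to Zp3, and the other bovine models were 1 of ZP2 and 1 of ZP3. By number of models Zp3 stood highest, since 9.96% of the mouse genes with a model had at least 5 own-strand models. At least 2 models, the number for mouse Zp2 and for bovine ZP2 and ZP3, were found for 51.2% of mouse genes and 57.9% of bovine genes. The part of read depth in these model counts was not tested.

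**Figure D1:**
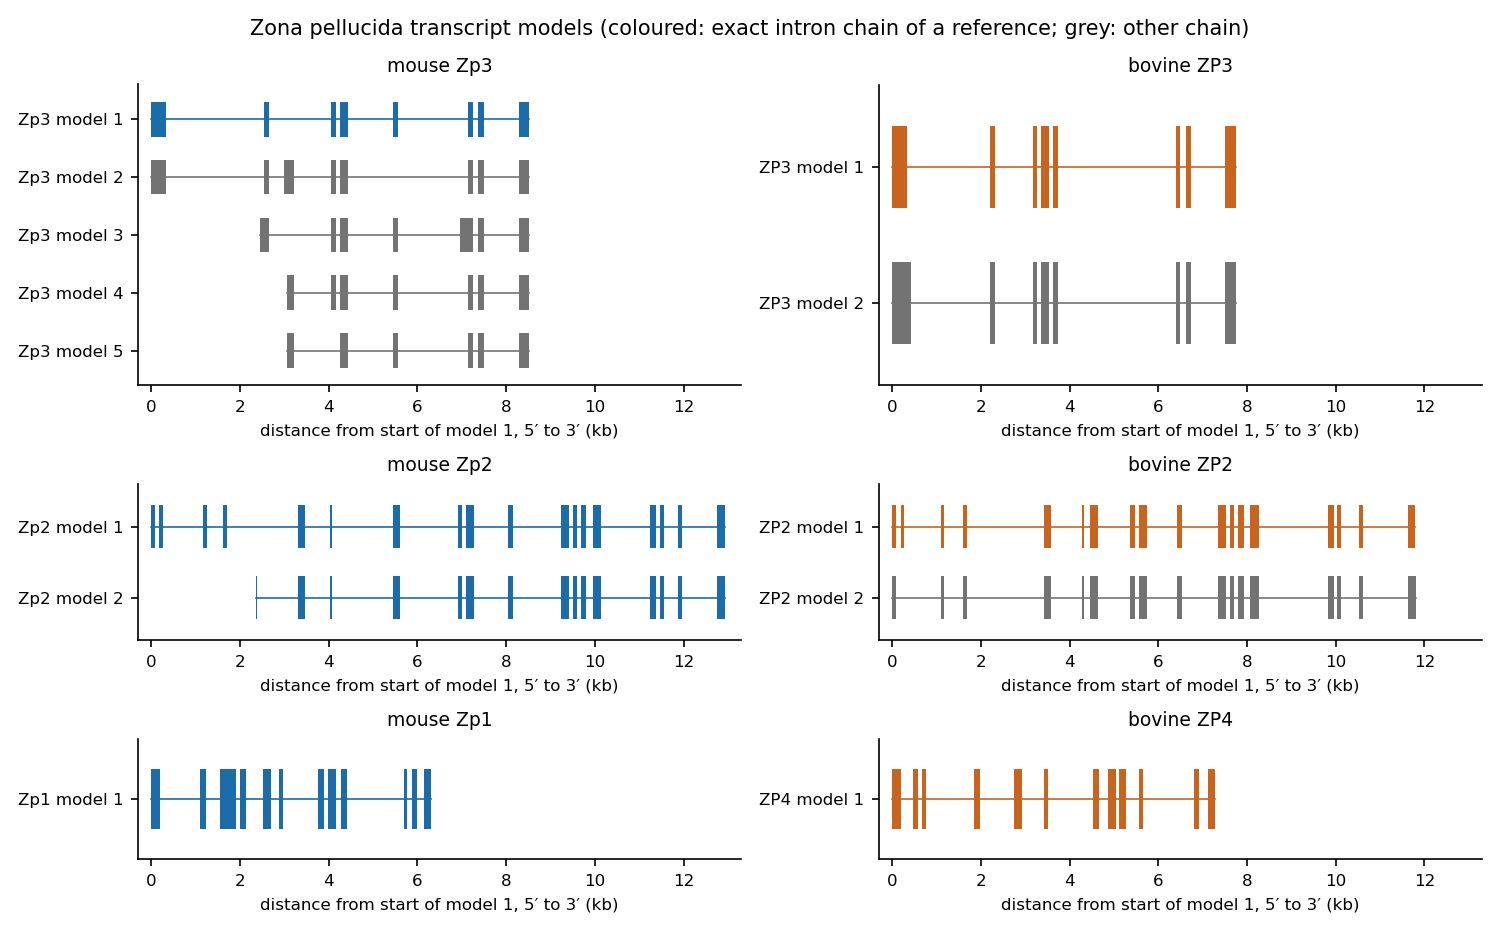
Exon structures of the 13 zona pellucida models, with mouse on the left and bovine on the right. Boxes are exons drawn to scale, the x axis is the distance in kb from the start of model 1 of each gene in the direction of transcription, coloured models carry an exact reference intron chain and grey models do not. Grey models are 4 of 5 for mouse Zp3 and 1 of 2 each for bovine ZP2 and ZP3.

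**Figure D2:**
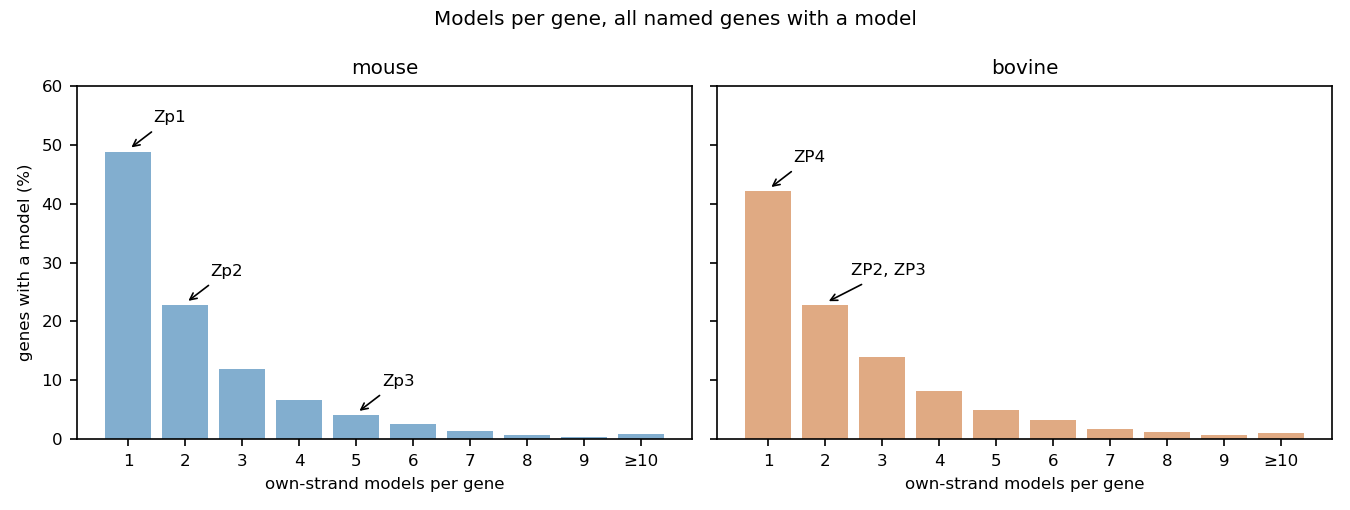
Share of genes (%, y axis) by number of own-strand models (x axis) among all named genes with a model, mouse on the left and bovine on the right, with the zona genes marked. Zp3 is the only marked gene above 2 models.

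The junctions that separate alternative zona transcripts are printed here because the sequence on either side of each splice shows what was joined to what. Their exon bases were read from GENCODE M21 transcripts and joined as each model joins them, 5′ to 3′, with the upstream exon in lower case and the downstream exon in capitals. The first pair is the junction of Zp3 exon 4 with exon 5, as in the exact match, and with exon 6, as in the model that skips exon 5. The second pair is Zp2 exon 5 joined to exon 4, as in the long model, and to an alternative first exon of 29 bases, as in the short model. The last pair gives in full the coding exons of Zp3 that were each left out of 1 model whose start lies upstream of them.
Zp3 exon 4 to exon 5, chr5:135984502-135985574, plus strand, mm10: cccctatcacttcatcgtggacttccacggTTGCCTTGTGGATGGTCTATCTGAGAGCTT
Zp3 exon 4 to exon 6, chr5:135984502-135987284, plus strand, mm10: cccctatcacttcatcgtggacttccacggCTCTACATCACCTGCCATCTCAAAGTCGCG
Zp2 exon 4 to exon 5, chr7:120141952-120143619, minus strand, mm10: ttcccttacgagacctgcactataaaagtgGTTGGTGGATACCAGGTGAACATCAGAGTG
Zp2 alternative first exon to exon 5, chr7:120141952-120142932, minus strand, mm10: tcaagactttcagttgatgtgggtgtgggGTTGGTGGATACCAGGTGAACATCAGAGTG
Zp3 exon 3, chr5:135984162-135984265, plus strand, mm10: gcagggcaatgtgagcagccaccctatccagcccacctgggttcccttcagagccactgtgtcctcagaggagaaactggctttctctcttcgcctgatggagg
Zp3 exon 5, chr5:135985545-135985662, plus strand, mm10: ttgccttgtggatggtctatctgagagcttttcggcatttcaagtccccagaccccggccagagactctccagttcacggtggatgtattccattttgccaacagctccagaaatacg

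Zp3, the gene of the ZP2 partner in the filament, was assembled as 5 models on the plus strand of chromosome 5 within 135980105 to 135988624 (mm10). Model 1 was the exact match, with 8 exons, a spliced length of 1317 bp and all 1272 annotated coding bases (424 codons). All 5 models ended at the same base, 135988624, which is the RefSeq end of the gene, while their starts fell into 3 groups. Models 1 and 2 started at 135980105, the RefSeq start. Model 3 started 2457 bp further downstream, in intron 1, and models 4 and 5 started 3066 bp downstream, in intron 2. Of the introns, 2 were in every model, those on either side of exon 7.

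Model 2 of Zp3 kept the annotated start but contained an additional exon of 229 bp in intron 2 (135983092 to 135983320) and lacked exon 5 of 118 bp, printed above. Neither length is a multiple of 3, but their difference of 111 bp is, equal to 37 codons. Exons 3 and 4 lie between the 2 changes, so this difference does not show that the frame was kept. Exons 1 and 2, with the annotated start codon, were intact. An unbroken annotated run to the end of the coding sequence began only at base 835, with no ATG in the annotated frame from there. The added exon shares its donor side with the first exon of models 4 and 5, which begins 79 bp inside it and also ends at 135983320. An exon ending at this base was therefore present in 3 of the 5 Zp3 models, as an internal exon in 1 and as a first exon of 150 bp in the other 2. No GENCODE M21 transcript of Zp3 has an intron that begins there. The bases of this exon were not read, because no mouse genome sequence was used here, so whether it lies in a transposable element was not tested.

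Models 3, 4 and 5 lacked the annotated start codon. Model 3 began 77 bp upstream of exon 2, and its exon 6 was 183 bp longer at the acceptor side, which is 61 codons in length. It kept 963 of the 1272 coding bases (75.7%), interrupted by the 183 added bases, which were not read. An annotated run unbroken to the end of the coding sequence began only at base 835, with no ATG in the annotated frame from there. Exons 3, 4 and 5, upstream of the added bases, were intact. Exon 3 holds an ATG in the annotated frame at codon 176. Whether the frame from this ATG continues through the added bases was not tested. Model 4 ran from the intron 2 exon into exon 3 and kept 844 coding bases (66.4%), with the first ATG in the annotated frame at codon 176, so that 249 codons (58.7% of the protein) followed from it. Model 5 joined the same first exon to exon 4, leaving out exon 3 of 104 bp, and kept 740 coding bases (58.2%) with no ATG in the annotated frame in that stretch. These positions describe the annotated frame only, and no translation was measured.

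Across the 5 Zp3 models, exons 4, 7 and 8 had the same boundaries in 5, exons 3, 5 and 6 in 4, and exons 1 and 2 in 2. Of 12 distinct introns, 7 belonged to the exact match and 5 were absent from GENCODE M21. The intron from 135983321 to 135984161 was in 2 models. The other 4, at 135982758 to 135983091, 135983321 to 135984347, 135984532 to 135987254 and 135985663 to 135987071, were in 1 model each. Of the 2 GENCODE transcripts of Zp3, 1 had its intron chain assembled. The other one joins exon 2 to exon 4 and is annotated as a target of nonsense-mediated decay. Model 5 also left out exon 3, but from a different upstream exon.

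Zp2, which encodes the protein that sperm bind in mouse, had 2 models on the minus strand of chromosome 7, and both carried an exact reference chain. The long model (120132357 to 120145291) had 18 exons, 2205 bp and all 2139 coding bases of the 713 annotated codons. The short model (120132348 to 120142932) had 15 exons and 1894 bp and began 2359 bp downstream, in intron 4. Its first exon is the one printed above and ends at the same donor as the first exon of a GENCODE transcript annotated as non-coding. The short model lacks exons 1 to 4 and with them 318 coding bases, or 106 codons at the N-terminal end, and keeps 1821 (85.1%). Its whole sequence is annotated, so its reading frames could be listed. The longest one that begins with ATG starts at base 96 of the model, is in the annotated frame from codon 129 and spans 585 codons (82% of 713).

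The Zp2 models shared 13 of their 18 distinct introns, and their ends lay 9 bp apart. Neither used the distal last exon of another coding GENCODE transcript. Of 5 GENCODE transcripts of Zp2, the intron chain of 1 was assembled. The chain of the short model came from a computationally predicted RefSeq transcript. Of the introns of Zp2, 0 were absent from GENCODE M21.

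Zp1, the gene of the crosslinking protein, was assembled as 1 model between 10914296 and 10920601 of chromosome 19, minus strand. It had 12 exons and 1925 bp, with all 1869 coding bases of 623 codons. All 11 introns were those of 1 GENCODE transcript, and the intron chain of the other annotated transcript was not assembled.

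In bovine, ZP3 had 2 models on the plus strand of chromosome 25 (34446153 to 34453895, bosTau9), both of 8 exons. The exact match measured 1311 bp and the other 1384 bp. They differed in the donor of exon 1, which lay 72 bp further downstream in the second model, a length of 24 codons, and their starts were 1 bp apart. Bovine ZP2 had 2 models on the minus strand of the same chromosome (19019145 to 19030962). The exact match had 18 exons and 2199 bp. The other had 17 exons and 2142 bp and skipped exon 2 of 77 bp, which is not a multiple of 3. Bovine ZP4 was assembled as 1 exact match between 10614232 and 10621499 of chromosome 28, minus strand, with 12 exons and 1659 bp.

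By the authors' start groups, mouse Zp3 had 3 and Zp2 had 2, while bovine ZP3 and ZP2 had 1 each. Counted separately, models that start inside an intron of the exact match were 4 of 8 in mouse and 0 of 5 in bovine. The share of such starts over all models of each library was not counted. These counts are therefore not read as particular to zona genes or to a species. The first exon of the short Zp2 model and that of Zp3 models 4 and 5 overlapped no exon of the exact match, while that of Zp3 model 3 contained exon 2. Whether any of these starts comes from incomplete cDNA was not tested.

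Mouse exact matches of Zp1 and Zp3 began and ended at the bases given for these genes in RefSeq. This was common in the library, as 82.4% of the 2393 genes with a single RefSeq transcript and an exact multi-exon match to it ended at both RefSeq ends (exact Clopper-Pearson 95% interval 80.8% to 83.9%). The long Zp2 model began at the RefSeq start and ended 5595 bp short of the RefSeq gene end, and the short model ended 5586 bp short of it. Whether ends were taken over from a reference was not tested, so lengths that rest on them describe the models as deposited. GENCODE starts Zp1 31 bp and Zp3 6 bp further upstream.

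The mouse zona models had a short stretch after the stop codon, the 3′ untranslated region, where deadenylation and translation signals of maternal mRNAs commonly lie. Its length in the models was 27 bases in Zp1, 32 in the long and 41 in the short Zp2 model, and 13 in Zp3. In the GENCODE transcripts with the same intron chains as Zp1, the long Zp2 model and Zp3 model 1 it was 34, 49 and 13 bases. Over 8023 mouse genes with an exact match to a coding chain in GENCODE, taking the longest per gene, the median was 681 bases, with quartiles of 293 and 1384. Of these genes, 0.536% were at or below Zp1, 0.636% at or below Zp2 and 0.174% at or below Zp3, or 43, 51 and 14 genes, each count including the gene itself and, for Zp2, using the long model. These lengths and shares rest on the 3′ ends of the models, to which the limit above applies. Before the start codon the same models held 26 bases in Zp1, 31 in Zp2 and 29 in Zp3.

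**Figure D3:**
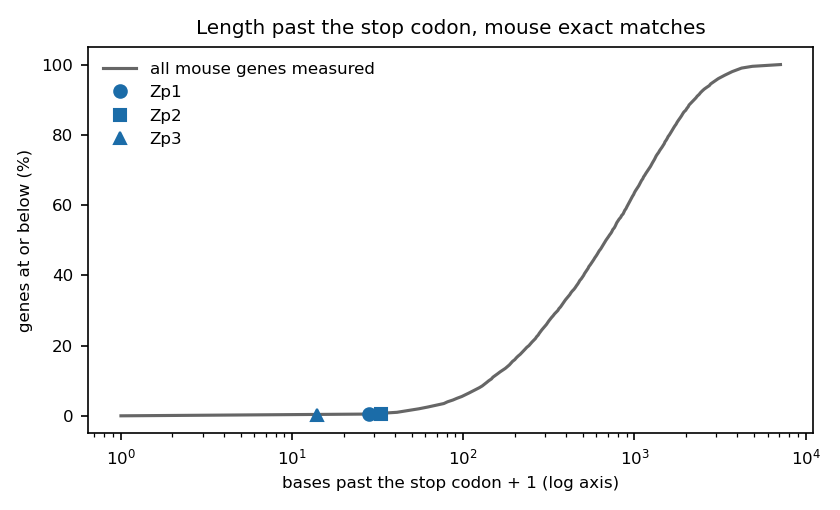
Cumulative share of 8023 mouse genes (%, y axis) by the number of spliced bases past the stop codon plus 1 (log x axis), longest exact match per gene. The line is all genes, and the markers for Zp1, Zp2 and Zp3, at 27, 32 and 13 bases, sit at the far left of it.

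Exon by exon, the zona genes of the 2 species matched in number. Zp2 had 18 exons in mouse and 18 in bovine, and Zp3 had 8 in mouse and 8 in bovine. Of the 16 internal exons of Zp2, 9 had the same length in both species, and the internal exons summed to 1934 bp in mouse and 1934 bp in bovine. Of the 6 internal exons of Zp3, 4 had the same length, with sums of 754 bp in mouse and 739 bp in bovine. All 9 differing internal exons, 7 of Zp2 and 2 of Zp3, differed by a multiple of 3, and the largest difference was 12 bp in Zp2 exon 2 and 9 bp in Zp3 exon 7.

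Of 5414 symbols with an exact match of at least 3 exons in both libraries, 4989 had a pair with equal exon number, and the median share of internal exons with equal length was 100%. The share was 56.2% for Zp2 and 66.7% for Zp3, and 8.9% of genes were at or under Zp2 and 14.2% at or under Zp3. For all genes together, 73.1% of 4104 differing internal exons differed by a multiple of 3. This comparison used the best pair of each gene and no test. Genes with several exact matches thus had more pairs to choose from, while Zp3 had 1 exact match in each species. The effect of this on the shares was not tested.

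Zp1 of mouse and ZP4 of bovine, paralogues of which each was assembled in only 1 of the species, both had 12 exons. Of 10 internal exons, 4 had the same length, namely exons 2, 5, 6 and 8 with 122, 188, 98 and 190 bp, and all 6 others differed by a multiple of 3. The largest difference was in exon 3, with 364 bp in mouse Zp1 and 103 bp in bovine ZP4, a difference of 261 bp. The remaining 5 differed by at most 9 bp. Zp2 also has an internal exon of 190 bp, exon 14, in mouse and in bovine.

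**Figure D4:**
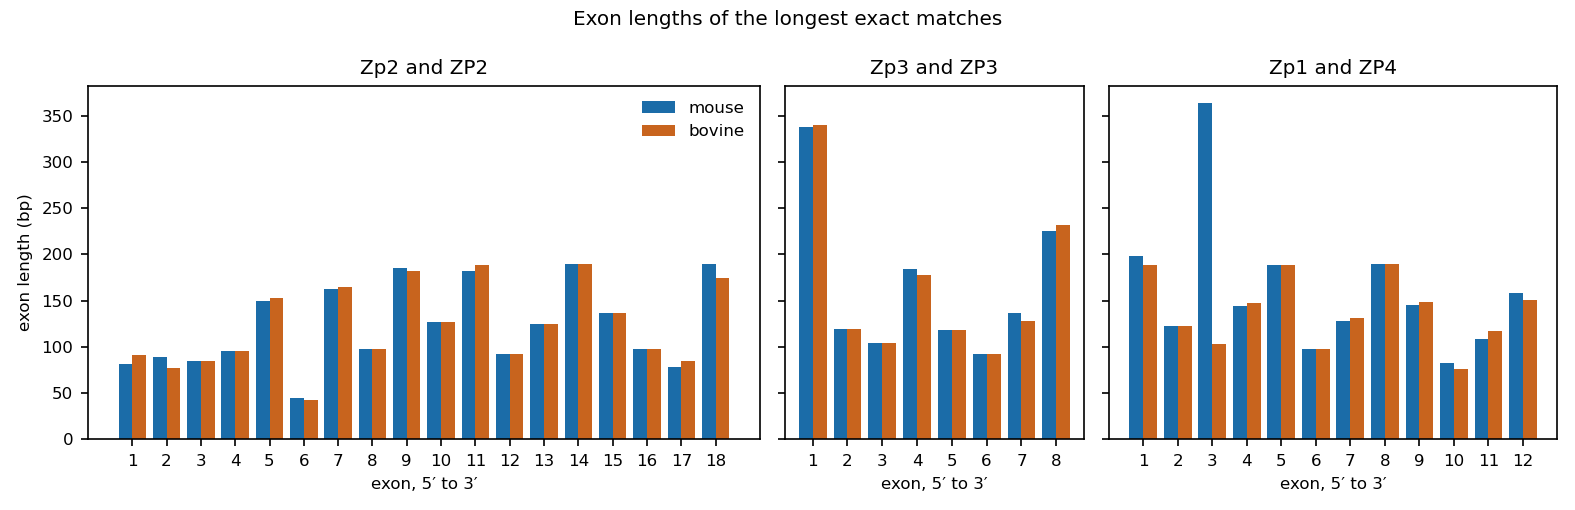
Exon length in bp (y axis) by exon number from 5′ to 3′ (x axis) for the longest exact matches, with mouse bars left of bovine bars. Zp2 and Zp3 are set against their bovine counterparts and Zp1 against bovine ZP4, where exon 3 measures 364 bp in mouse and 103 bp in bovine.

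Among genes with own-strand models, Tmem159 was the nearest on the lower side of Zp2 in both species, 11.4 kb away in mouse and 26.4 kb in bovine. The ubiquitin ligase gene Dtx2 was the nearest on the higher side of Zp3 in both, at 6.16 kb in mouse and 27.5 kb in bovine. On their other sides lay Uqcrc2, 490 kb from Zp2 in mouse, and ANKS4B, 28.4 kb from ZP2 in bovine, and Ssc4d, 5.27 kb from Zp3 in mouse, and YWHAG, 53.6 kb from ZP3 in bovine. Zp1 lay between the splicing factor gene Prpf19 at 8.76 kb and Ccdc86 at 20.9 kb. For bovine ZP4 the nearest genes with a model were MTR at 1064 kb and ZNF33B at 2119 kb, and genes without a model were not looked at. Models of other genes overlapped the span of 0 of the 6 assembled zona genes.

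The window upstream of the Zp3 start is shown because the oocyte factor FIGLA is known to act on mouse zona genes through an E-box, a short motif written CANNTG. The RefSeq promoter table held 1 of the 3 assembled mouse members, Zp3. The 250 bases before its start are given with CANNTG and TATAA in capitals, searched on both strands.
Zp3 upstream window, chr5:135979855-135980104, plus strand, GRCm38.p6: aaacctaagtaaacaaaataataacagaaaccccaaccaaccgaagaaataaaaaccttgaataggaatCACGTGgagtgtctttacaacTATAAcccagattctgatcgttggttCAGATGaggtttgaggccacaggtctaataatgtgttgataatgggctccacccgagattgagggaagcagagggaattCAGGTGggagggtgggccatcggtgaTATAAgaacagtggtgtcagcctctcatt
CANNTG occurred at 3 places, starting at -181, -134 and -55 from the start, and the first of these is also CACGTG. Of 32851 promoter windows of the same length, 66.2% held CANNTG, at a mean of 1.16 places per window, and CACGTG was in 6.02% of them. The motif TATAA occurred at 2 places, at -160 and -29, and 22.8% of windows held it. A match of letters is a description and shows no binding.

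Lists of genes related to the zona or to its proteins held 55 symbols, of which 34 had an own-strand model in mouse (61.8%) and 33 in bovine (60%). Of the 10 other genes with a ZP module, 10% had a model in mouse and 40% in bovine. Leaving this list out gave 33 of 45 in mouse (73.3%) and 29 of 45 in bovine (64.4%). Over all mouse protein-coding symbols the shares were 53.5% in mouse and 48.6% in bovine, which also serve each list below. With so few symbols per list, no list is read as standing apart from those shares. Among transcription factors of the oocyte known to act on zona genes or their regulators, 7 of 9 had models in mouse and 8 of 9 in bovine. Figla, the E-box factor gene named above, was not assembled in mouse and had 2 models in bovine, both exact. Tcf3 and Tcf12, which encode E-box proteins of the class that pairs with it, had 4 models each in mouse and 2 each in bovine. Nobox, an oocyte homeobox gene, had 1 model in mouse and none in bovine. Lhx8 had 1 in mouse and 6 in bovine, and Taf4b, a TFIID subunit of germ cells, had 1 in mouse and 8 in bovine. Sohlh1 had 3 in mouse and 1 in bovine, Sohlh2 had none in mouse and 4 in bovine, and Tcf4 had 1 in mouse and 3 in bovine.

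Genes that process or glycosylate secreted proteins had models for 7 of 8 in mouse and 6 of 8 in bovine. Furin, a protease of the class that trims zona proteins before assembly, had 2 models in each species. The glycosyltransferase gene Mgat1 had 4 in mouse and 3 in bovine, and B4galt1 had 2 in each. For the block to polyspermy and the cortical granules the counts were 6 of 9 in mouse and 5 of 9 in bovine. Astl, which encodes ovastacin, had 1 model in mouse and 4 in bovine, and none of them was an exact match. Fetub, which encodes an inhibitor of ovastacin, was assembled as 2 models in mouse and was not assembled in bovine. Snap25, a membrane fusion gene, was not assembled in mouse and had 8 models in bovine. Stx4a, with 3 models in mouse, is a mouse name, and bovine models under other names were not counted.

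All 5 symbols listed for the egg surface had models in both species. Izumo1r, which encodes the sperm receptor Juno, had 2 in mouse and 5 in bovine, and the tetraspanin gene Cd9 had 1 in each. That list also holds Zar1 and Zar1l, which encode RNA-binding proteins of the oocyte and not surface proteins. Oocyte-secreted factors had models for 6 of 7 in mouse and 4 of 7 in bovine. Gdf9 and Bmp15, growth factors of the oocyte, had 2 and 1 models in mouse and 1 and 2 in bovine. The genes on the sperm side of zona binding had models for 2 of 7 in mouse, Spam1 and Zpbp2 with 1 each, and for 1 of 7 in bovine, ZPBP2 with 4. Other genes with a ZP module, active in kidney, ear or vessels, had models for 1 of 10 in mouse, Tgfbr3, and for 4 of 10 in bovine, ENG, OIT3, TECTB and TGFBR3, none of them with an exact match in bovine.

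Among the zona-related lists and the oocyte markers, the genes nearest to each member by model counts over the 2 libraries were Nobox, Oosp1, Pcsk7 and Spam1 for Zp1 (1 in mouse and 0 in bovine), B4galt1, Furin and Ooep for Zp2 (2 and 2), Rab27a for Zp3 (5 and 2), and Eng, Oit3 and Pcsk5 for Zp4 (0 and 1), all at a summed difference of 0. With 2 libraries and counts this small, many genes tie. Markers of other cells were not searched for likeness, and some have the same counts. Examples are Inha and Fshr with 1 model in mouse and 0 in bovine, and Ptprc and Foxl2 with 0 in mouse and 1 in bovine.

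Markers of cells that could add RNA to the pools were counted beside these. Oocyte markers, of which Gdf9, Bmp15 and Zar1 also stand in the lists above, had models for 9 of 10 in each species. In a list added later than the others, genes known for the major activation of the embryonic genome were assembled for 6 of 8 symbols in mouse. In bovine, 4 of 5 were assembled. Over all mouse protein-coding symbols, 53.5% had a model in mouse and 48.6% in bovine, and lists this short cannot settle the stage. Among the activation genes, Zscan4d had 3 models and Dux and Zscan4f none in mouse, and ZSCAN4 had 7 models and LEUTX none in bovine. The Zscan4 copies of mouse are near-identical, so the assignment of models among them is uncertain. Cumulus and granulosa markers, from the cells around the egg, had models for 9 of 15 in mouse and 7 of 15 in bovine, with 11 models in mouse and 14 in bovine. These shares, 60% in mouse and 46.7% in bovine, are set beside 53.5% of all symbols in mouse and 48.6% in bovine, to which they lie close. Tnfaip6, which encodes a protein of the cumulus matrix, and the steroid synthesis genes Cyp11a1 and Star had an exact match in both species. Inha and Fshr had one in mouse, and Has2 and Foxl2 in bovine. The aromatase gene Cyp19a1, the hormone gene Amh and the matrix gene Ptx3 had no model in either species. For sperm the counts were 2 of 9 in mouse and 4 of 9 in bovine, and for blood 1 of 6 in mouse and 3 of 6 in bovine. The blood list holds globin symbols in mouse naming (Hbb-bs, Hba-a1) and in bovine naming (Hbb, Hba). The bovine models were of HBB, HBA and PTPRC, so the blood counts are not comparable between the species. The part of any of these cells in the zona models was not tested.

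**Figure D5:**
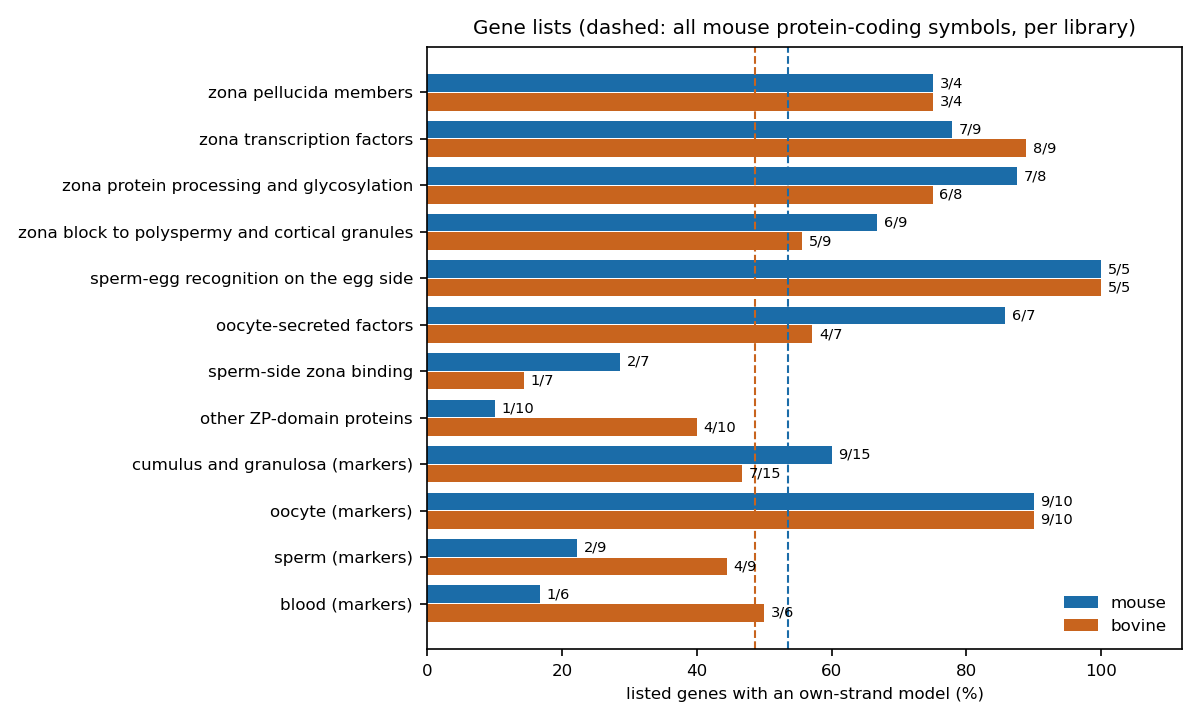
Share of listed genes with an own-strand model (%, x axis) for each list, mouse bars above bovine bars, with the number found of the number listed at the end of each bar. Dashed lines give the share of all mouse protein-coding symbols, 53.5% in mouse and 48.6% in bovine. The zona members, among them Zp4, a pseudogene in mouse, stand at 3 of 4 in both.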

How the data were processed

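The authors deposited 1 StringTie transcript model file per library, per the source column and attributes of each file, with exon positions, gene name, closest reference transcript, class code and start group, and with no score or abundance. The builds are mm10 and bosTau9, per the submitters' processing notes. For aligner, tool versions and filters the record is: not given in the sources used here. The labels' protocols name no molecular identifiers. Depth is therefore unknown, and model counts are no measure of expression.

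Models were selected by gene name and class code; own-strand codes were =, c, k, m, n, j and o. Mouse exons, coding bases and sequences came from GENCODE M21 on the mm10 coordinates; 1 GENCODE transcript each of Zp1, Zp2 and Zp3 matched a model at every intron. Bovine sequence and annotation were not used. The parser was tested on simulated data. Shares carry exact Clopper-Pearson 95% intervals (scipy 1.17.1) where given, which cover counting error only. Members and lists were chosen with earlier results of these data known. Named genes were the members, their listed partners, nearest neighbours and up to 5 genes per member with the nearest model counts.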

Additional observations from a re-analysis of the deposited data

How the results depend on the processing

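The number of zona genes with a model was 3 in mouse and 3 in bovine under every alternative tried (exact matches, own-strand codes, at least 2 exons). The number of zona models fell to 4 of 8 in mouse and to 3 of 5 in bovine with exact matches alone. When the authors' start groups were counted, an alternative chosen after seeing the data, it was 6 in mouse and 3 in bovine. Counting own-strand codes, models of at least 2 exons or distinct intron chains left 8 and 5, distinct start positions gave 6 and 5, and overlap with an annotated exon gave 8 in mouse. Listed genes with a model numbered 26 in mouse, against 34, and 22 in bovine, against 33, with exact matches alone. All genes with a model numbered 10217 in mouse, against 14090, and 8756 in bovine, against 13374, with exact matches alone, since fewer models enter. No paired analysis was possible because each species has 1 library. Unknown depth limits every absence: a gene without a model may be transcribed below what was assembled.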
